A study of Homo sapiens with 14 samples.

Results

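The genes PAX6, PAX3, OTX2, ZIC1, ZIC2, POU3F2, MEIS1, MEIS2, IRX3 and LHX2 encode transcription factors that pattern the developing neural tube. They were taken by name as forebrain to hindbrain and dorsal neural factors. All 10 of 10 were found among the 25952 genes of the deposited count table, and all 10 passed the filter on low counts that left 19142 genes for testing. RNA was sequenced from cultures of NT2, an established line of human embryonal carcinoma from which neuron-like and other cells can be derived. The study concerns nucleotide excision repair during differentiation of these cells toward neurons and muscle cells. RA cultures were kept for 5, 10 or 21 days with all-trans retinoic acid, given from a stock in DMSO at a final 10 µM as the neuron-inducing agent. BMP2 cultures were kept for 5, 10 or 21 days with bone morphogenetic protein 2 as the muscle-inducing agent, tested first at 30 ng/ml and later at 40 ng/ml, and the labels do not give the dose of each library. The reference was untreated cells at day 0. All groups are the same line in serum-containing medium, with 2 libraries each, 14 in all. Since neither vehicle-treated cells nor untreated cells kept for 5 days or longer were analysed here, a comparison with day 0 combines the agent with the time in culture. Whether the replicates are separate cultures is not stated in the labels, and the spread between libraries that p-values rest on may be technical.

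During development the neural plate is first anterior in character, marked by OTX2 and other forebrain factors, and posterior levels are then specified by signals that include retinoic acid, WNT and FGF. Retinoic acid acts through nuclear receptors of the RAR and RXR families, and its best known targets in the hindbrain are HOX genes and genes of the MEIS family, whose proteins bind DNA together with HOX and PBX proteins. BMP signals from the dorsal side of the neural tube promote dorsal identities, including domains of PAX3 and ZIC1, while at earlier stages BMP signalling opposes neural fate.

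The windows around the transcription starts of MEIS1, MEIS2, ZIC1 and OTX2 are shown first, since RNA of the first 3 genes was higher after treatment and RNA of OTX2 was lower. Each holds 250 bases before and 50 after a start annotated by RefSeq on GRCh38.p14, written 5′ to 3′ along the gene's strand. Capitals mark CCAAT, the CCAAT box, or its reverse complement ATTGG. They lie at chr2:66434875-66435174 on the plus strand for MEIS1, chr15:37098647-37098946 on the minus strand for MEIS2, chr3:147409115-147409414 on the plus strand for ZIC1 and chr14:56810430-56810729 on the minus strand for OTX2. For MEIS2 and OTX2, which have 2 windows each, the window with a match is shown.
MEIS1: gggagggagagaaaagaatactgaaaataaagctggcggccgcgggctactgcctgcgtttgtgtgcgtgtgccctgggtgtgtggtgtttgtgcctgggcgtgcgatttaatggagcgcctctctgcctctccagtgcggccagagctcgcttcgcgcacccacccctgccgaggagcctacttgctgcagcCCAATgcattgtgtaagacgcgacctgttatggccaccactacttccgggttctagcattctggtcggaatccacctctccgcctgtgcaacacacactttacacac
MEIS2: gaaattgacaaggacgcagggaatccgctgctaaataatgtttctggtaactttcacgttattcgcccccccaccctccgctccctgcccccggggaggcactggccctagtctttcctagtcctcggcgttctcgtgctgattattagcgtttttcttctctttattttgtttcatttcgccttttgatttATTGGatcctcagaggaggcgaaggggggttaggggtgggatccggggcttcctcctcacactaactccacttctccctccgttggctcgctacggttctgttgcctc
ZIC1: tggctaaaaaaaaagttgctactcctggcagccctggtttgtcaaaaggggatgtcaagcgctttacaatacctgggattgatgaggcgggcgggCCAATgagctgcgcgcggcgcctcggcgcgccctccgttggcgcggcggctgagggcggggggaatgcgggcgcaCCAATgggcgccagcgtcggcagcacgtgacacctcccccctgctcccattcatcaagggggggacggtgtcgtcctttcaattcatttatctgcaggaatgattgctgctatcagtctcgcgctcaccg
OTX2: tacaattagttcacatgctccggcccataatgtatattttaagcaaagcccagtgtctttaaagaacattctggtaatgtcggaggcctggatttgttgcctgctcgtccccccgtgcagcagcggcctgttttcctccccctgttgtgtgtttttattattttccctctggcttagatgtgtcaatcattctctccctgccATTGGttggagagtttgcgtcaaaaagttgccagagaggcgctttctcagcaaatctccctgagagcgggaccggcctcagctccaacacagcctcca
RefSeq windows were given for 9 of the 10 members, 19 windows in all, and IRX3 is named only. CCAAT in either direction was found in 10 of the 19 windows, in 8 members, against 34.6% of 35116 windows of all genes. ZIC1 has 2 matches and the other shown windows have 1. The TATA box letters TATAAA, found in 11.5% of all windows on either strand, were in 0 of the 19. AGGTCA, a half-site of retinoic acid receptors (13.8% of all windows), was also in 0 of the 19. Its exact direct repeat with 5 bases between the copies, a form of the retinoic acid response element, was in 0 as well (0.0057% of all windows). Variant spellings of the half-site or repeat were not searched for, and 9 of the 19 windows belong to PAX6. The MEIS core TGACAG (15.8% of all windows) was in 2 windows of PAX6 and in no window of the other members. These are matches of letters in short windows, and a missing match says nothing of sites elsewhere.

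Total counts ran from 45773278 to 75754396 per library. Levels are given as CPM, counts scaled to one fixed normalised library size, for replicate 1 and then replicate 2 of a group. The summed CPM of 8 neuronal marker genes was 215 to 276 at RA day 5, 730 to 1054 at RA day 10 and 537 to 570 at RA day 21, against 80.8 to 106 at untreated day 0. NEFM and MAP2 made up most of the sum at RA day 21, with means of 359 and 152 CPM. There 3 of the 8 were called higher and 1, SYP, was called lower (4.30 CPM at RA day 21, against 11.0 CPM at untreated day 0), with a median log2 fold change of -0.25, and the means of DCX, ELAVL3 and ELAVL4 were also below those of untreated cells. Of the 6 neural progenitor markers, SOX1 stayed at or below 1.05 CPM and HES5 at or below 0.358 CPM in all 14 libraries. SOX2 and NES were abundant in untreated cells. SOX3 had 15.9 and 5.45 CPM at untreated day 0 and 42.8 and 62.2 CPM at RA day 5. At BMP2 day 5 SOX3 had 2.09 and 0.849 CPM. Over day 0, 0 of the 6 were called higher in any treated group. Called lower were 0, 0 and 1 at RA days 5, 10 and 21, and 2, 2 and 4 on the same BMP2 days. RA was called above BMP2 for 3, 3 and 2 of the 6 on these days, and below for 0. The 5 smooth muscle markers summed to 559 to 1278 CPM at BMP2 day 5, 641 to 1241 at BMP2 day 10 and 338 to 485 at BMP2 day 21, against 35.3 to 88.8 at untreated day 0. At these BMP2 days 5, 4 and 3 of the 5 were called higher. TAGLN (316 and 202 CPM) and ACTA2 (151 and 106 CPM) made up most of the sum at BMP2 day 21. MYH11 stood there at 0.780 and 0.693 CPM, against 1.46 and 0.974 CPM at untreated day 0. The 4 cardiac markers summed to 345 to 1946, 399 to 647 and 221 to 260 CPM at BMP2 days 5, 10 and 21. Their sum was 26.2 to 48.2 CPM at untreated day 0, and 4, 4 and 1 of them were called higher. The skeletal muscle regulator MYOD1 was at 0 in all 6 BMP2 libraries. The BMP2 day 10 libraries differed from each other: their 6 pluripotency markers summed to 831 and 17.1 CPM, and across genes replicate 1 correlated best with BMP2 day 5 replicate 2 (r = 0.9939) and replicate 2 with BMP2 day 21 replicate 2 (r = 0.9793). In bulk RNA, fewer cells of a type and less RNA per cell cannot be told apart.

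Changes are log2 fold changes ± SE from edgeR's quasi-likelihood test, and a gene was called at a Benjamini-Hochberg adjusted p under 0.05 over all 19142 genes. Against untreated day 0, 6 of the 10 members were called at RA day 5, 5 higher and 1 lower, where 8.31% of all tested genes were called, 5.59% higher and 2.72% lower. At RA day 10, 7 members were called, 5 higher and 2 lower, beside 24% of all genes, 12.9% higher and 11.1% lower. At RA day 21, 6 members were called, 4 higher and 2 lower, beside 44.6% of all genes, 23.4% higher and 21.1% lower, so the members' share there lies closer to that of all genes. The median log2 fold change of the members was 3.32, 3.49 and 1.00 at RA days 5, 10 and 21, and that of all genes was -0.002, 0.061 and 0.096. Only 3 members were called at RA day 5 without untreated replicate 1 and 2 without untreated replicate 2.

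In BMP2 cultures, 5 members were called at day 5, 2 higher and 3 lower, beside 29.2% of all genes, 15.9% higher and 13.4% lower. At BMP2 day 10 again 2 members were called higher and 3 lower, beside 36.3% of all genes, 19.8% higher and 16.4% lower. At BMP2 day 21, 3 were called higher and 4 lower, beside 47.1% of all genes, 25% higher and 22.1% lower. The count was 4 without untreated replicate 2 or without BMP2 day 21 replicate 2. The members' medians were 0.99, 0.34 and -1.13, beside 0.000, 0.051 and 0.042 for all genes. RA and BMP2 comparisons with day 0 share the same 2 untreated libraries. MEIS1 and MEIS2 were called higher and OTX2 was called lower in all 6 treated groups.

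**Figure D1:**
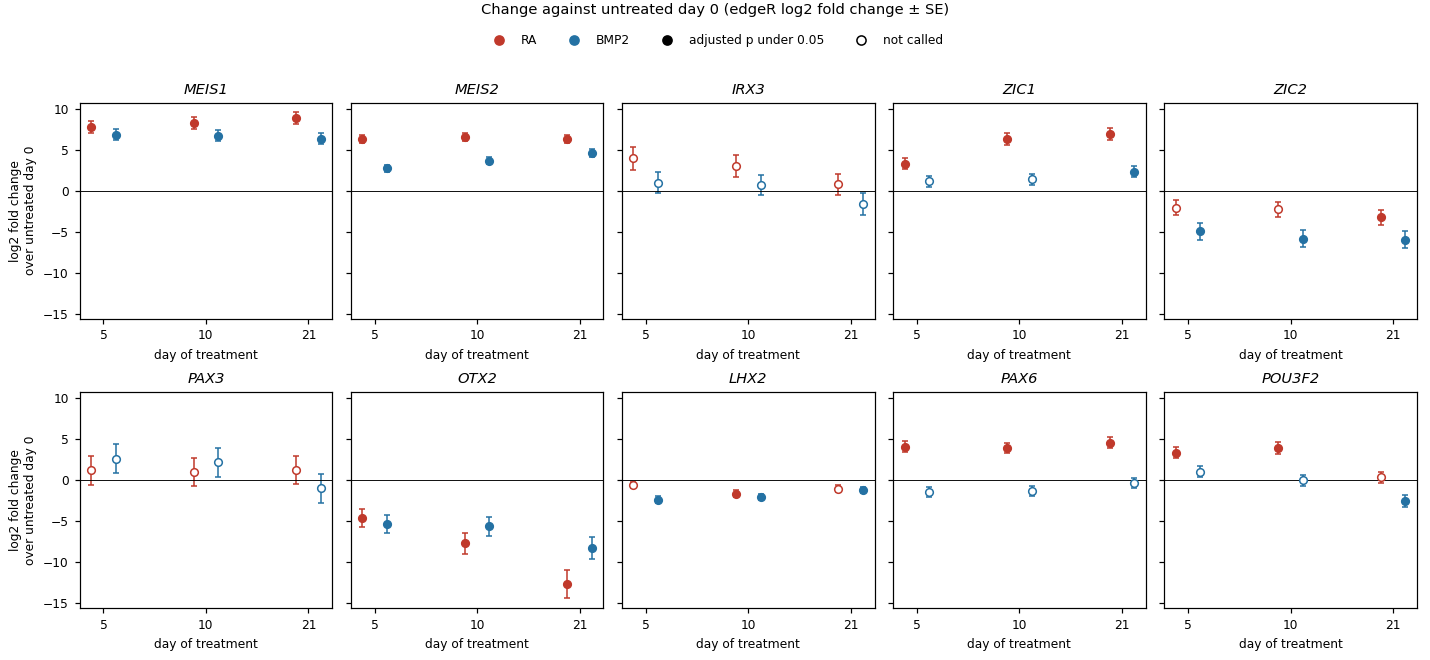
Log2 fold change of each member over untreated day 0 (y axis, edgeR estimate ± SE) at days 5, 10 and 21 (x axis) of RA (red) and BMP2 (blue); filled points have an adjusted p under 0.05. MEIS1 and MEIS2 lie above 0 and OTX2 below 0 in every group, and PAX6 and ZIC1 lie higher after RA than after BMP2; the fitted OTX2 value at RA day 21 rests on 2 counts and is no bound.

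Set directly against each other, RA and BMP2 cultures differed for 3 members on day 5 and for 5 members on each of days 10 and 21. All of these calls were higher in RA, and 0 members were called lower. Of all genes, 5.97%, 5.11% and 5.99% were called higher in RA on the 3 days, 6.25%, 5.73% and 6.07% were called lower, and 12.2%, 10.8% and 12.1% were called in either direction. The members' median difference was 2.25, 2.60 and 2.44 on the log2 scale, beside 0.000, -0.001 and 0.024 for all genes. At day 5 the count was 7 without either BMP2 day 10 library, although these libraries are not compared there. At day 10 it was 3 without RA day 10 replicate 2. At day 21 it was 2 without any of the 4 compared libraries and 8 without either BMP2 day 10 library. Whether the RA to BMP2 difference itself changed between days was tested with an interaction term, and 0 members were called from day 5 to day 10 or from day 5 to day 21. That test called 0 of all genes for day 10 and 314 for day 21, 1.64% of those tested.

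**Figure D2:**
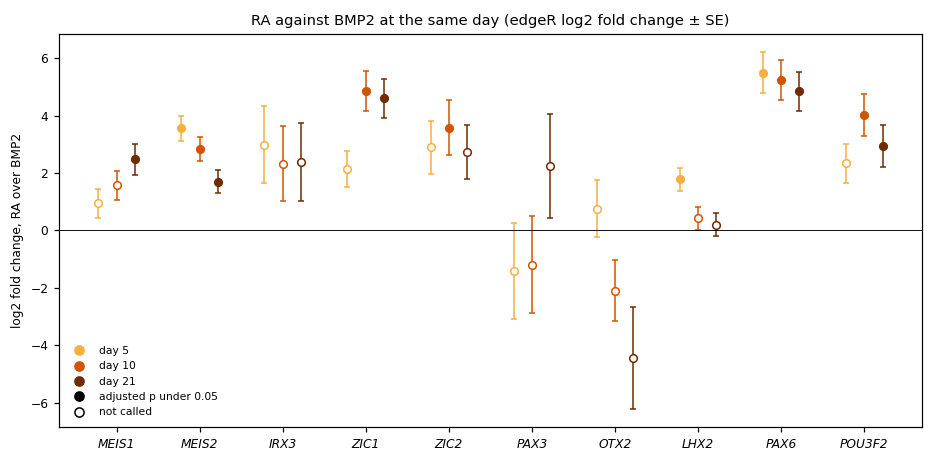
Log2 fold change of RA over BMP2 at the same day (y axis, edgeR estimate ± SE) for the 10 members (x axis) at days 5, 10 and 21; filled points have an adjusted p under 0.05. PAX6 and MEIS2 are called higher in RA at all 3 days, and ZIC1 and POU3F2 at days 10 and 21.

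**Figure D3:**
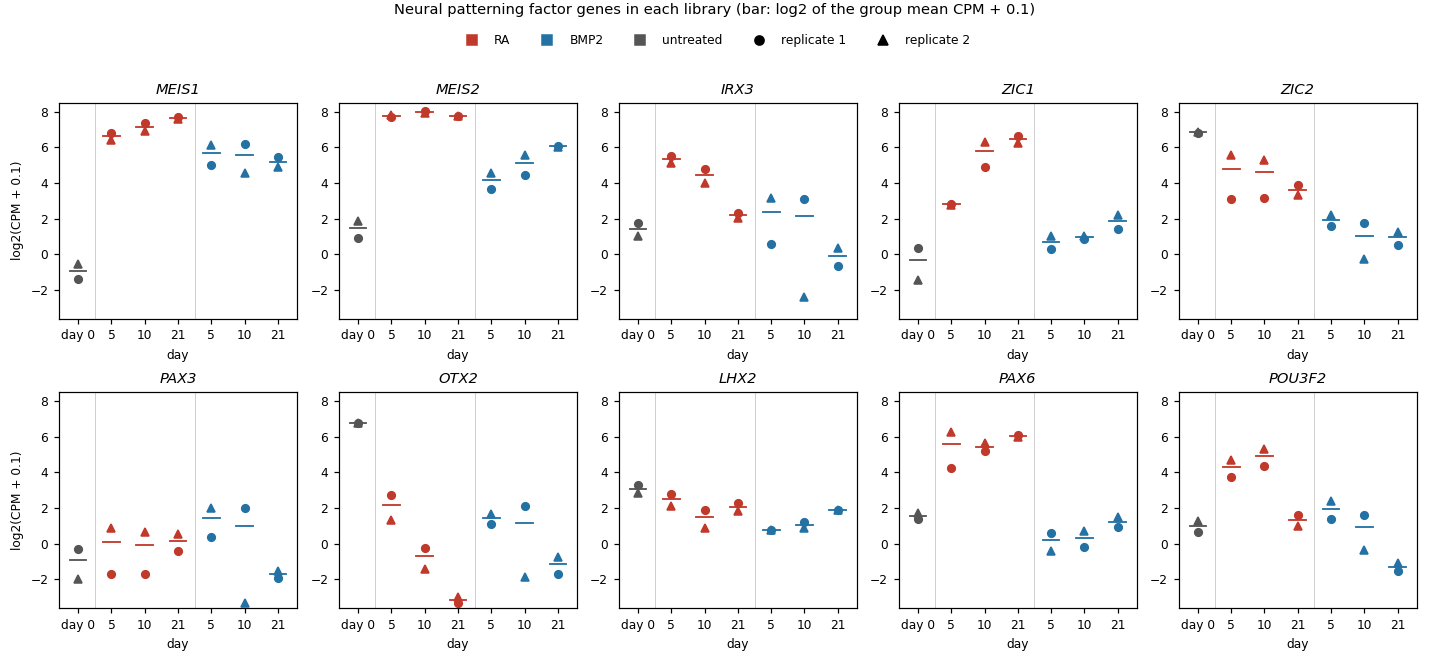
Level of each member in the 14 libraries (y axis, log2 of CPM plus 0.1) at untreated day 0 and at days 5, 10 and 21 of RA and of BMP2 (x axis); circles are replicate 1, triangles replicate 2 and bars the log2 of the group mean CPM plus 0.1. MEIS1 and MEIS2 replicates lie close together at RA, whereas ZIC2 and PAX6 at RA day 5 and IRX3, PAX3 and OTX2 at BMP2 day 10 differ widely within the group.

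The TALE homeodomain genes are given first. RNA of MEIS1, whose product is a HOX and PBX partner, was scarce in untreated cells and rose after both agents. MEIS1 had 0.284 and 0.584 CPM at untreated day 0, 109 and 86.5 CPM at RA day 5, 163 and 121 CPM at RA day 10, and 211 and 196 CPM at RA day 21. In BMP2 cultures it had 32.2 and 69.7 CPM at day 5, 71.8 and 23.3 CPM at day 10, and 43.3 and 29.3 CPM at day 21. All 6 RA libraries stood above all 6 BMP2 libraries, and all 12 treated libraries stood above both untreated ones. Over untreated day 0, MEIS1 rose by 7.77 ± 0.70 at RA day 5 (adjusted p = 0.00034) and by 8.82 ± 0.73 at RA day 21 (adjusted p = 6.38e-05). After BMP2 it rose by 6.83 ± 0.68 at day 5 (adjusted p = 0.000239) and by 6.34 ± 0.67 at day 21 (adjusted p = 0.000119). The RA level increased with each day without overlap between the groups, yet the difference of RA day 21 over RA day 5, 1.05 ± 0.51, did not pass (adjusted p = 0.145); without either BMP2 day 10 library it passed at 1.05. MEIS1 was also higher in RA than in BMP2 on the last day. RA exceeded BMP2 by 2.48 ± 0.53 at day 21 (adjusted p = 0.0174), a call that was lost without any 1 of the 4 compared libraries (2.21 to 2.80). At day 10 the difference was 1.57 ± 0.52 (adjusted p = 0.0803), and 2.60 and called without BMP2 day 10 replicate 1.

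MEIS2, a paralogue of MEIS1 that is expressed in hindbrain, forebrain and limb fields, also rose after both agents and was higher in RA than in BMP2 at all 3 days. It had 1.83 and 3.63 CPM at untreated day 0, 210 and 221 CPM at RA day 5, 259 and 244 CPM at RA day 10, and 217 and 217 CPM at RA day 21. RA day 21 over RA day 5 was 0.01 ± 0.39 (adjusted p = 0.99). In BMP2 cultures MEIS2 stood at 12.8 and 23.5 CPM at day 5, 21.8 and 47.7 CPM at day 10, and 68.2 and 64.7 CPM at day 21. The lowest RA library stood above the highest BMP2 library. Over day 0, MEIS2 rose by 6.29 ± 0.49 at RA day 5 (adjusted p = 0.000151) and by 2.72 ± 0.42 at BMP2 day 5 (adjusted p = 0.00166). Between BMP2 day 21 and BMP2 day 5 it rose by 1.87 ± 0.41 (adjusted p = 0.0201), which was lost without BMP2 day 5 replicate 1 (1.5) or either BMP2 day 21 library (1.83 and 1.90). RA exceeded BMP2 by 3.57 ± 0.43 at day 5, 2.85 ± 0.42 at day 10 and 1.71 ± 0.40 at day 21 (adjusted p = 0.00172, 0.0045 and 0.0247). The day 21 call was lost without any 1 of the 4 compared libraries (1.65 to 1.75).

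IRX3, an Iroquois factor gene that in the spinal cord marks intermediate progenitor domains, had 3.35 and 1.91 CPM at untreated day 0, 46.3 and 34.9 CPM at RA day 5, 27.9 and 15.6 CPM at RA day 10, and 4.95 and 4.01 CPM at RA day 21. All 6 RA libraries were above both untreated libraries, and the 3 RA days did not overlap each other. BMP2 cultures had 1.37 and 8.85 CPM at day 5, 8.5 and 0.0894 CPM at day 10, and 0.534 and 1.18 CPM at day 21, so the highest and lowest BMP2 values both fell within days 5 and 10. The BMP2 day 10 libraries differed most. No IRX3 comparison passed the threshold in the fit over all 14 libraries: RA day 5 over day 0 was 3.95 ± 1.40 (adjusted p = 0.114) and RA day 21 over RA day 5 was -3.18 ± 1.35 (adjusted p = 0.102). Over 21 alternatives the adjusted p of RA day 5 over day 0 ranged from 0.00197 to 0.437. Without either BMP2 day 10 library, IRX3 was called higher at RA day 5 (3.96) and RA day 10 (3.06) over day 0, higher in RA than in BMP2 at days 5 and 21 (2.99 and 2.39), and lower at day 21 than at day 5 of RA (-3.18) and of BMP2 (-2.58). The values that involve BMP2 day 10 depend on which of its libraries is used. RA over BMP2 at day 10 was 2.34 ± 1.30 (adjusted p = 0.278), and 7.89 and called without BMP2 day 10 replicate 1. At BMP2 day 10 the value over day 0 was 0.72 ± 1.27 (adjusted p = 0.69), and without replicate 1 it was -4.84 and called.

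Dorsal neural tube and midline factors follow. ZIC1, a zinc finger factor of the dorsal neural tube and cerebellar precursors, rose in RA cultures at every day and in BMP2 cultures at day 21. It had 1.18 and 0.264 CPM at untreated day 0, 6.94 and 6.81 CPM at RA day 5, 29.3 and 79.5 CPM at RA day 10, and 98.1 and 75.5 CPM at RA day 21. BMP2 cultures had 1.14 and 1.93 CPM at day 5, 1.74 and 1.97 CPM at day 10, and 2.63 and 4.51 CPM at day 21. Every RA library exceeded every BMP2 and untreated library, and RA days 10 and 21 lay apart from RA day 5 but overlapped each other. ZIC1 rose by 3.29 ± 0.67 at RA day 5 over day 0 (adjusted p = 0.0163), a call lost without untreated replicate 2 (2.54) or RA day 5 replicate 1 (3.28). It rose by 6.95 ± 0.77 at RA day 21 over day 0 (adjusted p = 0.000168) and by 3.66 ± 0.65 at RA day 21 over RA day 5 (adjusted p = 0.00391). The BMP2 changes of ZIC1 were smaller. BMP2 day 21 was higher than day 0 by 2.35 ± 0.65 (adjusted p = 0.0142), lost without untreated replicate 2 (1.60) or BMP2 day 21 replicate 2 (1.92). Values at BMP2 days 5 and 10 were 1.14 ± 0.65 and 1.40 ± 0.65 (adjusted p = 0.212 and 0.118), and were called without untreated replicate 1 (2.53 and 2.80). RA over BMP2 was 2.15 ± 0.62 at day 5 (adjusted p = 0.0501, not called, but called at 2.14 to 2.16 without any 1 library of untreated day 0, RA day 10 or BMP2 day 10), 4.88 ± 0.69 at day 10 (adjusted p = 0.00412) and 4.60 ± 0.68 at day 21 (adjusted p = 0.00406).

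ZIC2, a relative whose loss in humans causes holoprosencephaly, followed another course. It had 111 and 117 CPM at untreated day 0, 8.40 and 47.1 CPM at RA day 5, 8.85 and 39.2 CPM at RA day 10, and 14.6 and 9.98 CPM at RA day 21. BMP2 cultures had 2.97 and 4.48 CPM at day 5, 3.23 and 0.738 CPM at day 10, and 1.36 and 2.31 CPM at day 21. Both untreated libraries were above every treated library, and every RA library was above every BMP2 library. ZIC2 fell after BMP2, at -4.94 ± 1.01 on day 5, -5.83 ± 1.06 on day 10 and -5.96 ± 1.07 on day 21 (adjusted p = 0.00609, 0.00266 and 0.00145). After RA it fell at day 21, with -3.22 ± 0.93 (adjusted p = 0.0181), and this was lost without untreated replicate 2 (-3.18) or either RA day 21 library (-3.53 and -2.98). At RA days 5 and 10 the values were -2.04 ± 0.89 and -2.25 ± 0.89 (adjusted p = 0.189 and 0.0941), and the day 10 value was called without BMP2 day 10 replicate 2 (-2.25). Both groups had a low and a high library: replicate 2 exceeded replicate 1, 5.61-fold at day 5 and 4.43-fold at day 10. RA was called above BMP2 at day 10 (3.59 ± 0.96, adjusted p = 0.0412), a call lost when any of 10 single libraries was left out (2.12 to 3.59). At days 5 and 21 RA over BMP2 was 2.90 ± 0.93 and 2.74 ± 0.94 (adjusted p = 0.0688 and 0.083), called without either BMP2 day 10 library (2.90 and 2.75) and, at day 5, without RA day 5 replicate 1 (3.66).

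PAX3 encodes a paired-domain factor that marks the dorsal neural tube and neural crest precursors. It had 0.710 and 0.153 CPM at untreated day 0, 0.203 and 1.71 CPM at RA day 5, 0.209 and 1.46 CPM at RA day 10, and 0.657 and 1.33 CPM at RA day 21. In BMP2 cultures PAX3 had 1.18 and 3.95 CPM at day 5, 3.83 and 0 CPM at day 10, and 0.164 and 0.252 CPM at day 21. Neighbouring groups overlapped throughout the order of levels. No PAX3 comparison was called in the fit over all 14 libraries: BMP2 day 5 over day 0 was 2.59 ± 1.78 (adjusted p = 0.3), and BMP2 day 21 over BMP2 day 5 was -3.61 ± 1.89 (adjusted p = 0.206). The estimate at BMP2 day 10 over day 0, 2.17 ± 1.76, became -7.63 without replicate 1, leaving a library with 0 counts, which allows 3 counts at most. In fits of only the 4 libraries compared, PAX3 was called higher in RA than in BMP2 at day 21 (2.25) and lower at BMP2 day 21 than at BMP2 day 5 (-3.62).

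The anterior factors come next. OTX2, a homeodomain factor required for forebrain and midbrain that is also active in pluripotent cells, fell in all 6 treated groups. It had 107 and 108 CPM at untreated day 0, 6.43 and 2.45 CPM at RA day 5, 0.761 and 0.268 CPM at RA day 10, and 0 and 0.0269 CPM at RA day 21. The RA day 21 values are 0 and 2 counts. BMP2 cultures had 2.07 and 3.13 CPM at day 5, 4.15 and 0.179 CPM at day 10, and 0.205 and 0.504 CPM at day 21. All 12 treated libraries were below the untreated ones. OTX2 fell at -4.60 ± 1.11 by RA day 5 (adjusted p = 0.0332), at -7.72 ± 1.30 by RA day 10 (adjusted p = 0.00317) and at -8.23 ± 1.34 by BMP2 day 21 (adjusted p = 0.000865). The RA day 5 call was lost without either untreated library, either RA day 5 library or either RA day 21 library (-5.45 to -4.04). The BMP2 day 5 call of -5.36 ± 1.15 (adjusted p = 0.00747) was lost without either BMP2 day 5 library (-5.10 and -5.66). OTX2 was lowest at RA day 21. There (adjusted p = 0.000403 over day 0) the 2 counts were 7570-fold fewer than at untreated day 0 after scaling, with a counting interval of 2090 to 62500. RA day 21 was 290-fold below RA day 5 (counting interval 80.3 to 2400, adjusted p = 0.00588) and 24.9-fold below BMP2 day 21 (counting interval 6.89 to 206), a difference that was not called in the fit (adjusted p = 0.127) but was called without either BMP2 day 10 library (-4.45). Without RA day 21 replicate 1 the difference from RA day 5 was not called, at a fitted -7.28 against -8.09 with all libraries. Other OTX2 differences between treated groups missed the threshold with all libraries. BMP2 day 21 over BMP2 day 5 was -2.87 ± 1.12 (adjusted p = 0.104), called without either BMP2 day 10 library (-2.87). RA over BMP2 at day 10 was -2.10 ± 1.07 (adjusted p = 0.235), called without BMP2 day 10 replicate 2 (-3.04).

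LHX2, a LIM homeodomain factor of forebrain and eye field, was low throughout and fell at RA day 10 and at all 3 BMP2 days. It had 9.69 and 7.08 CPM at untreated day 0, 6.90 and 4.26 CPM at RA day 5, 3.62 and 1.74 CPM at RA day 10, and 4.71 and 3.49 CPM at RA day 21. In BMP2 cultures LHX2 had 1.64 and 1.60 CPM at day 5, 2.24 and 1.77 CPM at day 10, and 3.61 and 3.55 CPM at day 21. Both untreated libraries were above all treated ones, and the group means of LHX2 ran only from 1.62 to 8.39 CPM. LHX2 fell by 1.65 ± 0.41 at RA day 10 (adjusted p = 0.0175), a call lost without either untreated library (-1.40 and -1.86) or RA day 10 replicate 2 (-1.19). At RA day 21 it stood at -1.03 ± 0.40 (adjusted p = 0.0594), called without either RA day 10 library (-1.05). The fall was called at every BMP2 day. It was at -2.37 ± 0.42 by BMP2 day 5 (adjusted p = 0.00304), -2.06 ± 0.42 by BMP2 day 10 (adjusted p = 0.00429) and -1.23 ± 0.41 by BMP2 day 21 (adjusted p = 0.0301), the last lost without any 1 of the 4 compared libraries (-1.44 to -0.98). RA was above BMP2 at day 5 by 1.78 ± 0.41 (adjusted p = 0.0225), also lost without any 1 of the 4 compared libraries (1.40 to 2.08), and at day 21 by 0.20 ± 0.40 (adjusted p = 0.779).

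PAX6 encodes a paired-domain factor of forebrain, eye and ventricular zone progenitors along most of the neural tube. PAX6 rose in RA cultures at all 3 days, and its BMP2 values were not called against day 0. It had 2.49 and 3.16 CPM at untreated day 0, 18.8 and 75.9 CPM at RA day 5, 36.2 and 50.2 CPM at RA day 10, and 68.7 and 62.4 CPM at RA day 21. BMP2 libraries had 1.45 and 0.645 CPM at day 5, 0.781 and 1.52 CPM at day 10, and 1.85 and 2.69 CPM at day 21. All RA libraries were above all others, RA day 5 overlapped both later RA days, and the BMP2 libraries reached up to the untreated ones only at day 21. PAX6 rose by 4.06 ± 0.65 at RA day 5, 3.93 ± 0.65 at RA day 10 and 4.53 ± 0.67 at RA day 21 (adjusted p = 0.00539, 0.00288 and 0.000585). The day 5 call was lost without either untreated library (3.91 and 4.24). After BMP2 it stood at -1.45 ± 0.62 on day 5 (adjusted p = 0.105), -1.31 ± 0.62 on day 10 (adjusted p = 0.123) and -0.32 ± 0.60 on day 21 (adjusted p = 0.686). Without either RA day 5 library PAX6 was called lower at BMP2 day 5 (-1.45 and -1.41) and BMP2 day 10 (-1.31 and -1.27). RA exceeded BMP2 by 5.51 ± 0.70, 5.24 ± 0.70 and 4.85 ± 0.68 at days 5, 10 and 21 (adjusted p = 0.00212, 0.00337 and 0.00317). Exons of the neighbouring ELP4 gene, on the opposite strand, cover 25.2% of PAX6 exon bases in the annotation used. As no source used here states the strandedness of the counting, reads of both genes in that stretch cannot be told apart. ELP4 stood at 4.59 to 12 CPM in all libraries.

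POU3F2, a POU-domain factor of neural progenitors and young neurons, was high at intermediate RA times. It had 1.5 and 2.28 CPM at untreated day 0, 13.3 and 25.4 CPM at RA day 5, 20.1 and 39.5 CPM at RA day 10, and 2.94 and 1.89 CPM at RA day 21. The RA day 5 and day 10 libraries were above all others, and the RA day 21 libraries overlapped the untreated ones. In BMP2 cultures there were 2.51 and 5.13 CPM at day 5, 2.98 and 0.671 CPM at day 10, and 0.246 and 0.378 CPM at day 21. POU3F2 rose by 3.35 ± 0.71 at RA day 5 (adjusted p = 0.0195) and 3.97 ± 0.73 at RA day 10 (adjusted p = 0.00466) over day 0, and the day 5 call was lost without either untreated library (3.08 and 3.69) or RA day 5 replicate 2 (2.83). RA day 21 was lower than RA day 5 by -3.0 ± 0.70 (adjusted p = 0.0114), lost without RA day 5 replicate 2 (-2.49) or either RA day 21 library (-3.39 and -2.76). In BMP2 cultures POU3F2 ended below both earlier groups compared. BMP2 day 21 was below day 0 at -2.60 ± 0.74 (adjusted p = 0.016), lost without untreated replicate 2 (-2.26) or either BMP2 day 21 library (-2.32 and -2.91). It was also below BMP2 day 5 at -3.61 ± 0.76 (adjusted p = 0.0186), lost without any 1 of the 4 compared libraries (-4.03 to -3.02). RA levels of POU3F2 were above BMP2 levels at days 10 and 21. RA exceeded BMP2 by 4.02 ± 0.73 at day 10 (adjusted p = 0.00999), lost without RA day 10 replicate 2 (3.43), and by 2.94 ± 0.75 at day 21 (adjusted p = 0.0318), lost without any 1 of the 4 compared libraries (2.57 to 3.26). At day 5 it was 2.34 ± 0.68 (adjusted p = 0.0506), called without either BMP2 day 10 library (2.34).

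Between day 21 and day 5 of RA, 3 members were called, ZIC1 higher and OTX2 and POU3F2 lower, beside 28.7% of all genes, 13.9% higher and 14.8% lower. Between day 21 and day 5 of BMP2, 2 were called, MEIS2 higher and POU3F2 lower, beside 15.5% of all genes, 7.77% higher and 7.75% lower. The RA count was 1 without RA day 21 replicate 1 and 5 without either BMP2 day 10 library. The BMP2 count was 0 without BMP2 day 5 replicate 1 or either BMP2 day 21 library, 1 without BMP2 day 5 replicate 2 and 4 without either BMP2 day 10 library.

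Several members differed between the replicates of groups in which marker sums differed as well. At RA day 5, replicate 2 exceeded replicate 1 for ZIC2 (47.1 against 8.40 CPM), PAX6 (75.9 against 18.8 CPM) and PAX3 (1.71 against 0.203 CPM), and less so for POU3F2. OTX2, LHX2, IRX3 and MEIS1 were instead lower in replicate 2, at 0.381 (OTX2) to 0.791 (MEIS1) of replicate 1. In the same libraries the 5 smooth muscle markers summed to 258 CPM in replicate 1 and 40.4 CPM in replicate 2. The 4 cardiac markers summed to 105 and 37.0 CPM. TAGLN made up 241 and 33.9 CPM of the smooth muscle sums, and ACTC1 48.7 and 5.06 CPM of the cardiac sums. Each marker was higher in replicate 1, but MYOCD (1.14 and 0.788 CPM) and MYH6 (31.7 and 24.3 CPM) differed little. All 9 of these markers had counts in both libraries, and their part in the difference between replicates was not tested. At BMP2 day 10, IRX3, PAX3, POU3F2, ZIC2, OTX2 and MEIS1 were higher in replicate 1, in which the 6 neural progenitor markers summed to 889 CPM, against 66.3 CPM in replicate 2. NES, an intermediate filament gene, made up 862 CPM and 60.4 CPM of these sums, and SOX1 and HES5 were at 0 in both. LHX2 was also higher in replicate 1 (2.24 against 1.77 CPM). MEIS2 (21.8 against 47.7 CPM), PAX6 (0.781 against 1.52 CPM) and ZIC1 (1.74 against 1.97 CPM) were instead lower in replicate 1. The part of this difference in the comparisons with BMP2 day 10 was not tested beyond the values given without a library.

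Across all 14 libraries the members did not share 1 course. On log2 CPM, Pearson's r was 0.887 between MEIS1 and MEIS2, 0.891 between POU3F2 and IRX3, and 0.851 between PAX6 and ZIC1. OTX2 ran opposite to MEIS1 (-0.827) and MEIS2 (-0.780), and ZIC1 and ZIC2 had r = 0.097. These values describe 14 libraries in 7 groups that share treatments, and carry no test.

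The relatives of the members, 26 genes of the PAX, OTX, ZIC, POU3F, MEIS, PBX, IRX and LHX families, were compared as a list, of which 25 were in the table and 22 were tested. In RA cultures, 2 were called higher and 1 lower at day 5, 6 higher and 3 lower at day 10, and 7 higher and 6 lower at day 21. Their medians were 0.30, 0.05 and 0.34. In BMP2 cultures, 3 were called higher and 7 lower at day 5, 4 higher and 7 lower at day 10, and 4 higher and 8 lower at day 21, with medians of -0.01, -0.16 and -0.87. These shares are read beside the share of all genes given above for the same comparisons. The relatives' medians were nearer 0 than the members' medians at RA days 5 and 10.

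PAX7, a dorsal neural tube and neural crest factor, had 0 and 0.0278 CPM at untreated day 0. It had 4.11 and 14.2 CPM at RA day 5, 4.38 and 24.0 CPM at day 10, and 5.27 and 4.90 CPM at day 21. After BMP2, PAX7 had 4.07 and 4.18 CPM at day 5, 4.90 and 0.134 CPM at day 10, and 0.287 and 0.210 CPM at day 21. It rose at RA day 5 (8.98 ± 1.86, adjusted p = 0.0178), a fitted value that rests on 1 untreated library with counts. POU3F1, a relative of POU3F2 expressed in early epiblast, fell to 0.747 CPM on average at BMP2 day 10, against 32.6 CPM at untreated day 0 (-5.44 ± 0.57, adjusted p = 0.000273). LHX9, a forebrain and spinal cord LIM factor, had 6.35 and 4.07 CPM at RA day 21 and 3.69 and 5.00 CPM at BMP2 day 21, against 0 in both untreated libraries. It was at least 210-fold higher at RA day 21 (adjusted p = 0.00559) and at least 180-fold higher at BMP2 day 21 (adjusted p = 0.00567), measured against 3 counts over the untreated group.

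**Figure D4:**
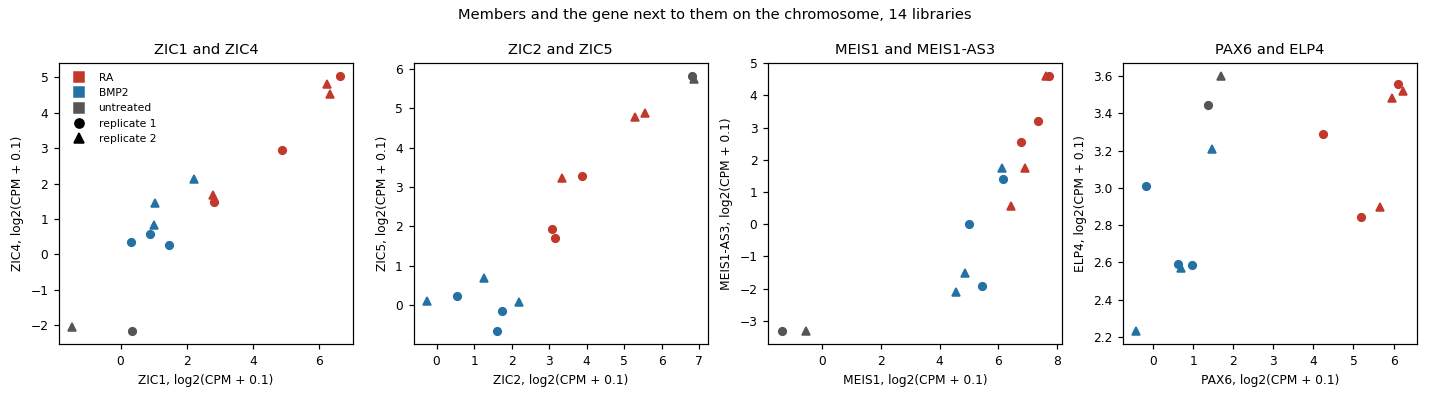
Members (x axes) and the gene beside them on the chromosome (y axes), each as log2 of CPM plus 0.1, in 14 libraries of RA (red), BMP2 (blue) and untreated cells (grey); circles are replicate 1 and triangles replicate 2. ZIC1 with ZIC4 and ZIC2 with ZIC5 lie along a line (r = 0.962 and 0.957), and PAX6 with ELP4 does not (r = 0.544).

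The genes beside the members were read from the annotation's gene order. Of 21 neighbours, 17 were tested, and their r with the member on log2 CPM over the 14 libraries ran from -0.727 to 0.962, with a median of 0.544. The highest belonged to ZIC1 with ZIC4 (0.962) and ZIC2 with ZIC5 (0.957), which are transcribed in opposite directions. ZIC4 had 32.9 and 28.1 CPM at RA day 21, against 0.122 and 0.139 CPM at untreated day 0. It rose by 7.84 ± 0.87 (adjusted p = 0.00017). ZIC5 had 3.74 and 29.6 CPM at RA day 5, so its replicates differed in the same direction as those of ZIC2. MEIS1-AS3, an antisense gene that shares part of its exons with MEIS1, was at 24.3 and 24.2 CPM at RA day 21, against 0 in both untreated libraries; antisense reads cannot be told apart from those of MEIS1 without strand. The lowest belonged to FBXL4 beside POU3F2 (-0.727), NEK6 beside LHX2 (-0.669) and TMEM260 beside OTX2 (-0.480).

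Regional neural genes beyond the members were compared by list. Of 10 hindbrain genes, 6 were called higher at RA day 5, 7 at RA day 10 and 6 at RA day 21, and 0 were called lower, with medians of 7.21, 7.08 and 5.84 in which genes without an untreated count stand at their lower bound. HOXA3 was at least 3400-fold higher at RA day 5 (adjusted p = 0.000372), against 3 counts over the untreated group. RA exceeded BMP2 for 6 of the 10 at day 5, 7 at day 10 and 6 at day 21. BMP2 libraries had 5 of the 10 called higher and 1 lower at day 5, with HOXB1 lower (-5.66 ± 0.95, adjusted p = 0.0024).

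Of 11 forebrain genes, 8 were tested. At RA day 21, 2 were called higher and 3 lower, with a median of -3.30, and at BMP2 day 21, 0 were called higher and 4 lower, with a median of -3.19. FEZF1, an anterior forebrain repressor, averaged 0.0202 CPM at RA day 21 and 0 CPM at BMP2 day 21, against 2.58 CPM at untreated day 0.

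Of 7 midbrain and boundary genes, 6 were tested, and 1 was called higher in each group except RA day 5. Another, GBX2, was called lower at RA day 21 and at all 3 BMP2 days. The list's medians over day 0 were -0.50, 0.39 and -1.94 at RA days 5, 10 and 21 and -0.09, -0.47 and -1.43 at the same days of BMP2, with genes lacking counts in a group at their bound. The gene called higher was EN1, a midbrain and hindbrain boundary factor also expressed in the cord, which averaged 35.1 CPM at RA day 21 (7.56 ± 0.88, adjusted p = 0.0002) and 17.7 CPM at BMP2 day 21 (6.58 ± 0.85, adjusted p = 0.000268), against 0.173 CPM at untreated day 0. Between the agents at day 5, GBX2 was higher in RA, with a mean of 30.0 CPM at RA day 5 and 2.06 CPM at BMP2 day 5 (3.86 ± 0.54, adjusted p = 0.00293). EN1 was lower in RA at that day, with 0.233 CPM at RA day 5 and 7.28 CPM at BMP2 day 5 (-5.03 ± 0.80, adjusted p = 0.00477). Of 6 ventral and intermediate cord genes, 4 were tested and OLIG2 was called lower at RA days 10 and 21 and in all BMP2 groups. OLIG2 averaged 0.156 CPM at RA day 21, against 4.13 CPM at untreated day 0 (-4.71 ± 0.69, adjusted p = 0.000569).

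The 4 neural crest genes were measured because PAX3, PAX7 and ZIC1 are also used by that lineage. SNAI2, an epithelial to mesenchymal transition factor found in many mesenchymal cells, was higher in BMP2 cultures, by 5.08 ± 0.56 at day 5 (adjusted p = 0.000362), and FOXD3, which pluripotent cells also express, was lower (-6.34 ± 0.97, adjusted p = 0.00202). The crest marker SOX10 stayed at or below 0.406 CPM in all 14 libraries. Their summed level was 3.66 to 21.5 CPM over the RA libraries and 58.0 to 99.3 CPM over the BMP2 libraries, against 14.2 to 14.9 CPM in the untreated ones. SNAI2 alone made up 57.6 to 92.0 CPM of the BMP2 sums. Of the 4 genes, 2 were called higher and 1 lower at RA days 10 and 21 and at BMP2 days 5 and 10. The calls were 0 higher and 1 lower at RA day 5, and 1 higher and 1 lower at BMP2 day 21. Their median log2 fold change was -0.76, 0.29 and 1.03 at RA days 5, 10 and 21, and 1.40, 2.27 and -2.21 after BMP2. TFAP2B had 3.71 and 10.4 CPM at RA day 10, 1.07 and 6.95 CPM at BMP2 day 5 and 6.71 and 0.358 CPM at BMP2 day 10. It had 0 and 0.111 CPM at untreated day 0. At BMP2 day 21 SOX10, TFAP2B and FOXD3 averaged 0.0205, 0.0313 and 0 CPM.

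Levels between genes were compared per kilobase of annotated exon. ZIC2 and OTX2 led at untreated day 0, with 34.5 and 32.7 CPM per kilobase, and MEIS1 was the lowest at 0.0397. At RA day 21 the order was led by MEIS2 (20.1), MEIS1 (18.6) and ZIC1 (12.8), followed by ZIC2 (3.71) and PAX6 (3.15), and OTX2 was the lowest. At BMP2 day 21 MEIS2 (6.15) and MEIS1 (3.32) again led, and LHX2 followed at 1.35 CPM per kilobase. On the authors' RPKM, whose implied length matches the whole gene span, ZIC2 led at RA day 21 (2.65 RPKM) and MEIS2 was at 1.10 RPKM, so the order between genes depends on the length used.

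The genes with the most similar course were sought among 13135 genes reaching a group mean of at least 5 CPM, by Pearson's r on log2(CPM + 0.5) over the 14 libraries. For MEIS1 these were BMF (0.981), RARB (0.963) and ADAM17 (0.962), of which RARB encodes a retinoic acid receptor. For MEIS2 they were HOXD8 (0.970), YAF2 (0.968) and TSHZ1 (0.962), and for IRX3 CRABP2 (0.959), PEG3 (0.958) and FZD10 (0.953), of which CRABP2 encodes a retinoic acid binding protein. PAX6 was closest to RGMB (0.975), RGMB-AS1 (0.974) and TIFA (0.956), and POU3F2 to GPSM2 (0.966), CDH20 (0.958) and ZBTB16 (0.954). ZIC1 was closest to NRAV (0.967), HOXB-AS2 (0.963) and ZIC4 (0.962), and ZIC2 to CACHD1 (0.958), ZIC5 (0.957) and TRABD2A (0.956). OTX2 was closest to KAT7 (0.974), POU5F1P3 (0.973) and GGT8P (0.968). For LHX2 (LAPTM4B, 0.898) and PAX3 (ZSCAN31, 0.848) the best matches were less close. The libraries share groups and depth, so these values are descriptions.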

How the data were processed

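RNA sequencing of 14 libraries in 7 groups of 2 was analysed from the deposited tables. The authors' count table holds raw counts of 25952 Ensembl genes, and their second table holds RPKM made by the authors. The submitters' processing notes list build hg19 and the tools featureCounts, STAR and DESeq2, with no versions or roles; the annotation and strandedness are not given in the sources used here. Between 66.0% and 73.5% of the counts from 1 to 19 in a library were even. Counting each mate of a read pair would give this, and counts may then exceed fragments. The length implied by RPKM equals the whole gene span within 1% for 89.03% of 5814 genes with at least 1000 counts in every library, so reads in introns may be included, and RPKM was used only for the order of levels. Symbols came from a list of gene names (25214 identifiers) and GENCODE v29 (58). Exon lengths, overlaps and gene order are from GENCODE v29, another build than hg19, so no gene coordinates are given; promoter windows are from RefSeq on GRCh38.p14.

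Groups follow the sample titles. Counts were fitted with edgeR 4.0.16 in R 4.3.3: 1 mean for each of the groups, fitted to all libraries with TMM factors after filterByExpr (minimum count 10), and quasi-likelihood F tests and Benjamini-Hochberg adjustment over 19142 genes, at a common biological coefficient of variation of 0.368 (degrees of freedom: 7 residual, 3.08 prior). SEs were derived from the F statistic as log2 fold change over its root. The 11 comparisons were 6 treated groups with day 0, RA with BMP2 at 3 days, and day 21 with day 5 in each treatment. Where a group has no counts, folds are taken relative to 3 counts over it. Counting intervals of OTX2 cover only the Poisson error of its 2 counts at RA day 21. They hold the compared group fixed and take the 2 counts as independent, so they are too narrow if both mates of a pair were counted. Deviations of same-numbered libraries from their group means had correlations from -0.461 to 0.241 over 21 pairs of groups, with 4 above 0.1. The labels do not state that replicate numbers pair libraries, so libraries were not treated as paired. Deviations shared by some of the groups are not excluded by this check. Replicate numbers are those of the titles; the descriptions number the RA day 21 libraries differently, so there the check and the block rest on the titles alone. Alternatives were RLE factors, no filter, CPM of at least 1 in 2 libraries, a replicate block, DESeq2 1.42.0, only the 4 libraries compared, omission of single libraries (the remaining library then takes its spread from the other groups), and the fit without both BMP2 day 10 libraries. The members, gene lists and tests were chosen with earlier results of these data known. Each list is given by its counts, and up to 3 called genes with the largest changes are named per comparison; ZIC4, ZIC5 and the other neighbouring genes are named for their position. Some genes of these lists are not reported here by name. Tables and figures were made with Python 3.11.15, pandas 2.3.3, NumPy 2.4.6 and matplotlib 3.10.9.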

Additional observations from a re-analysis of the deposited data

How the results depend on the processing

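Of 458 recomputed counts of called genes, 103 moved by over 1.5 times. With each library left out in turn, members called against untreated day 0 ranged from 2 to 7 at RA day 5, 6 to 9 at RA day 10, 5 to 7 at RA day 21, 4 to 6 at BMP2 day 5, 5 to 6 at BMP2 day 10 and 4 to 7 at BMP2 day 21. For RA against BMP2 they ranged from 2 to 7 at day 5, 3 to 7 at day 10 and 2 to 8 at day 21, and for day 21 against day 5 from 1 to 5 in RA and 0 to 4 in BMP2. All genes called ranged from 345 to 2810 at RA day 5, 1500 to 6368 at RA day 10, 5271 to 9850 at RA day 21, 2512 to 7222 at BMP2 day 5, 3748 to 7856 at BMP2 day 10 and 6159 to 10121 at BMP2 day 21. For RA against BMP2 they ranged from 502 to 4221 at day 5, 619 to 4435 at day 10 and 289 to 4229 at day 21, and for day 21 against day 5 from 1913 to 7209 in RA and 1 to 5306 in BMP2. With only the 4 libraries compared, members called were 3 at BMP2 day 10 over day 0, 0 for RA against BMP2 at day 10 and 9 at day 21, and 5 and 4 for day 21 against day 5 in RA and BMP2. All genes called were then 2839 at RA day 5, 1019 at BMP2 day 10, 9 and 5326 for RA against BMP2 at days 10 and 21, and 8884 for RA day 21 against day 5. For RA against BMP2 at day 5, members called were 6 with no filter, 5 with the CPM filter, 6 with DESeq2 and 7 without both BMP2 day 10 libraries. Without both BMP2 day 10 libraries, members called were 8 for RA against BMP2 at day 21, and 5 and 4 for day 21 against day 5 in RA and BMP2. All genes called were then 2879 at RA day 5, 4288 and 4385 for RA against BMP2 at days 5 and 21, and 5412 for BMP2 day 21 against day 5. With DESeq2, 4 members were called for BMP2 day 21 against day 5, and all genes called were 3236 at RA day 5, 4144, 3930 and 4176 for RA against BMP2 at days 5, 10 and 21, and 5164 for BMP2 day 21 against day 5. The cause of these movements was not tested. All groups in a fit share the dispersion estimate of a gene, and fits with libraries left out hold fewer libraries.

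For the 110 member tests, 2290 values were recomputed. Of these, 2120 kept their status as called or not called, 77 lost a call and 92 gained one. The 1 called value of opposite sign was IRX3 at BMP2 day 10 over day 0 without replicate 1 (-4.84, against 0.72; 1.70 without replicate 2). With the replicate block, ZIC2 lost its call for RA against BMP2 at day 10 (3.27) and LHX2 gained one at RA day 21 (-1.03); it moved no other member's call. With RLE factors LHX2 was called at RA day 21 (-1.09). Of 70 ranks of members by level per length, 51 moved when RPKM was used. Depth limits PAX3, with 0 to 251 counts per library, and OTX2 at RA day 21, with 0 and 2 counts.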
